A study of Mus musculus with 4 samples.

Results

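Il17a-only Th17 cells are CD4 T cells of the gut that carried transcripts of Il17a, the gene of the cytokine IL-17A, and none of Ifng or Foxp3. Members were chosen by measured counts of unique molecular identifiers (UMIs, each standing for 1 captured transcript). A cell barcode was a member with at least 3 UMIs of Il17a, 0 of Foxp3, 0 of Ifng, under 3 of Il22 and under 3 of Penk. Of the 19960 barcodes kept from recipients 1, 2 and 4, 1656 were members (8.30%). They were 841 of 9301 barcodes in recipient 1 (9.04%), 747 of 9244 in recipient 2 (8.08%) and 68 of 1415 in recipient 4 (4.81%), a mean of 7.31% ± 2.22 (SD, n = 3 recipients). They made up 29.7% of the 5569 barcodes with at least 3 Il17a UMIs. Of those 5569, 3079 had an Ifng UMI, 1345 had at least 3 Il22 UMIs, 513 had a Foxp3 UMI and 380 had at least 3 Penk UMIs, with overlaps among these.

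The cells came from the small intestinal lamina propria of irradiated Rag1-/- mice, which make no mature T or B cells of their own. Each recipient got 10000000 bone marrow cells, a 50:50 mix of WT marrow carrying the CD45.1 allele and Bcl3-/- marrow carrying CD45.2, and was analysed 16 weeks later. All recipients share the Rag1-/- background, the irradiation and the transplant, so both donors' T cells developed side by side in 1 animal, with no unirradiated or single-donor group. Live CD45+CD3+CD4+ cells were sorted and their transcripts counted with the 10x Genomics 3′ chemistry, after staining with oligonucleotide-tagged antibodies to the 2 CD45 forms. The donor of a cell was called with at least 10 tag UMIs and a tag ratio of at least 4-fold. Bcl3 encodes an atypical IkB protein that works in the nucleus with NF-kB subunits. The sources used here do not give which part of Bcl3 was deleted.

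Th17 cells are CD4 T cells that make the cytokines IL-17A and IL-17F. In the small intestine they arise largely in response to adherent commensal bacteria and help to hold the epithelial barrier through antimicrobial peptides and neutrophil-recruiting signals. Receptors for IL-23 and IL-1 sustain them, the chemokine receptor CCR6 guides them, and some of them can also make IFN-γ or IL-22. A gate on transcripts cannot tell a cell that never made Ifng from one that had none captured at this depth.

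The 5 markers of these cells are protein-coding genes, placed on GRCm38 (mm10) by GENCODE M21. Il17a lies at chr1:20730905-20734496 and its paralog Il17f beside it at chr1:20777146-20790617. Il23r, the IL-23 receptor subunit, lies at chr6:67422932-67491855, Il1r1, the signalling IL-1 receptor, at chr1:40225080-40317257, and Ccr6 at chr17:8236043-8257141. The letters AGGTCA, the half-site of many nuclear receptors, read as TGACCT on the opposite strand. The promoters of Il17a and of 3 markers that the rule did not read, from 250 bases before to 50 after the start site (RefSeq, GRCm38.p6, 5′ to 3′), are printed because each holds these letters, in capitals.
Il17a, chr1:20730655-20730954, plus strand: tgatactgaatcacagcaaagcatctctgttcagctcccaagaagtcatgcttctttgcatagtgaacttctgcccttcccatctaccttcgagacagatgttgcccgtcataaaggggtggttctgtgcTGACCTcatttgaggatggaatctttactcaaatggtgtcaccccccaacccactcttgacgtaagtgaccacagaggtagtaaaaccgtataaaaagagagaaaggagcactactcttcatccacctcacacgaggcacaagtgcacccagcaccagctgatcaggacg
Il17f, chr1:20784221-20784520, minus strand: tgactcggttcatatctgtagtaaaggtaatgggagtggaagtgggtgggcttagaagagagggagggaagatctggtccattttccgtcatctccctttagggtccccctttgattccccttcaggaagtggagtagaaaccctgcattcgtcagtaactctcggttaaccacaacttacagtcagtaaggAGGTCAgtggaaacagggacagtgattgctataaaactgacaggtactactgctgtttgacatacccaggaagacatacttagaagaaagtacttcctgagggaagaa
Il23r, chr6:67491806-67492105, minus strand: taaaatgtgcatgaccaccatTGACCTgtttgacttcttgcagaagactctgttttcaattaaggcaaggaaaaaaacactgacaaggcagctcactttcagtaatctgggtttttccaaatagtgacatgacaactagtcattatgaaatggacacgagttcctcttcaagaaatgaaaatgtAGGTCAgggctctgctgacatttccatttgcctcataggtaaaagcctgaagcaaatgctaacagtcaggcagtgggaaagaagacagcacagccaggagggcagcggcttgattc
Ccr6, chr17:8235793-8236092, plus strand: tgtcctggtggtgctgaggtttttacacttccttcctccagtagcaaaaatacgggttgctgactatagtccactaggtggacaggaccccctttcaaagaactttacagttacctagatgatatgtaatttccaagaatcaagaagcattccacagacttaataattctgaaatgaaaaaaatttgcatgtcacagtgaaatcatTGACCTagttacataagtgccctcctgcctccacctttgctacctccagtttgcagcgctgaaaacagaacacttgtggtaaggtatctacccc
The matches begin 120 bases before the start site of Il17a, 58 before that of Il17f, 229 and 66 before that of Il23r and 44 before the first of 2 start sites of Ccr6. Neither promoter of Il1r1 nor the second of Ccr6 holds the letters. They occur in 16.3% of the 32851 promoters of this length, so a match in a given promoter is common. With a T in front (TAGGTCA, searched within AGGTCA) they occur in 2.61% of promoters, those of Il23r and Ccr6 among them. Both strands were searched for 6 motifs in all, chosen with the matches known. The variant GGGTCA was in 13.7% of promoters, among these genes only in one of Il1r1. The E-box letters CACNTG were in 44.9%, including promoters of Il17a, Il1r1 and Ccr6, and the STAT letters TTCNNNGAA in 8.3%, including one of Ccr6. The AP-1 letters TGACTCA were in 5.2% of promoters and in none of these. A match describes the letters only.

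Recipients 1, 2 and 4 gave 60347749, 59190104 and 8642411 UMIs. Members had a median of 5833, 5834 and 5837 UMIs per barcode and the other kept barcodes 5943, 5779 and 5836, so depth did not separate them. Recipient 3 stood apart: 91.6% of its kept barcodes had at least 3 Il17a UMIs, far above the other recipients. Of its barcodes with at least 2 UMIs of Foxp3, the defining gene of regulatory T cells, 94.2% had 3 or more of Il17a, so its RNA is mixed and it was left out. Libraries shared at most 26 kept barcode sequences and no member. Il17a UMIs also appeared in barcodes of regulatory T cells, most of which should not make IL-17A. Among those with at least 2 Foxp3 UMIs, at least 1 Il17a UMI was seen in 384 of 1044 in recipient 1 (36.8%, median depth 5802 UMIs), 394 of 1197 in recipient 2 (32.9%, 5811 UMIs) and 10 of 230 in recipient 4 (4.35%, 5469 UMIs). At least 3 Il17a UMIs were seen in 14.6%, 12.4% and 1.30% of them, against 30.6%, 27.8% and 10.6% of all kept barcodes.

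Il17a itself varied widely among members. The median member held 27, 20 and 10.5 Il17a UMIs in recipients 1, 2 and 4, and the highest 238, 210 and 109. Members with exactly 3 UMIs were 5.47%, 8.57% and 11.8% of the members of recipients 1, 2 and 4. These values chose the members and are given as a description. Summed over members, Il17a reached 6720.1, 5632 and 3161 CPM (a gene's share of the summed UMIs, scaled to a total of 1000000) in recipients 1, 2 and 4, a scale used throughout in that recipient order. The other kept barcodes, which include cells that failed the gate on another gene, held 2182, 1635 and 284 CPM. Il22, capped at 2 UMIs by the rule, still had a UMI in 18.7, 17.8 and 4.41% of members.

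The other 4 markers, which the rule did not read, were all higher in members than in the other kept barcodes of the same recipient. Il17f stood at 362, 380.3 and 184 CPM in members, 309 ± 109 (SD, n = 3), against 157, 170.1 and 50.4 CPM in the others, 126 ± 65.7. Every member sum lay above every other sum. Il23r was at 63.9, 50.3 and 44.2 CPM in members and 36.4, 28.8 and 30.2 CPM in the others, with no overlap. Il1r1 was at 131, 87.1 and 65.2 CPM against 61.3, 56.1 and 58.9 CPM. Its lowest value was above the highest of the others, but recipient 4 showed hardly a difference. Ccr6 was at 119, 96.4 and 230.4 CPM against 55.2, 51 and 128 CPM, and here recipient 4 was the highest in both populations, so the populations overlapped across recipients but not within any of them. At least 2 of these 4 genes had a UMI in 45.4%, 35.5% and 42.6% of members and in 18.9%, 16.2% and 18.8% of the others. With every barcode thinned to 3000 UMIs the shares were 24.9%, 18.3% and 16.7% against 9.23%, 6.87% and 8.95%. None of the 4 had a UMI in 20.2%, 27.8% and 22.1% of members, and in 35.2%, 44.9% and 45.5% after thinning. The label therefore rests on the summed markers, not on each barcode.

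Among barcodes that met the rest of the rule, Il17f followed the Il17a count and the receptor genes much less. Il17f was at 43.2, 22 and 38.7 CPM in barcodes with 2 Il17a UMIs, just outside the gate, and at 89.3, 98.1 and 111 CPM in those with 3, just inside. At 60 or more Il17a UMIs it reached 598, 807 and 495 CPM. Il23r held 39.8, 35.7 and 77.5 CPM just outside, 67, 31.2 and 18.4 CPM just inside and 58.8, 51.1 and 70.6 CPM at the highest Il17a counts. Maf, a transcription factor of IL-10- and IL-17-producing T cells, held 976, 1032 and 1433 CPM at 2 UMIs and 1644, 1744 and 1884 CPM at 60 or more. Ccl5, a chemokine of cytotoxic and Th1 cells, dropped in recipient 1, from 259 CPM at 2 UMIs to 22.3 at 3 and 72.6 at 4 to 9. In recipient 2 it changed less over these counts, from 128 CPM to 89.2 and 115 CPM. At 1 UMI, further outside the gate, Ccl5 was at 725 CPM in recipient 1 and 462 CPM in recipient 2. Part of its fall in both therefore lay outside the gate. Recipient 4 had 0 CPM at 1 UMI, 436 CPM at 2, 0 at 3 and 7.6 CPM at 4 to 9. Its value at 2 UMIs rests on 4.76% of 21 barcodes, so no drop is shown there. In recipient 4 the bins with 3, 30 to 59 and 60 or more UMIs held only 8, 6 and 6 barcodes. The values are a description, with no test.

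**Figure D1:**
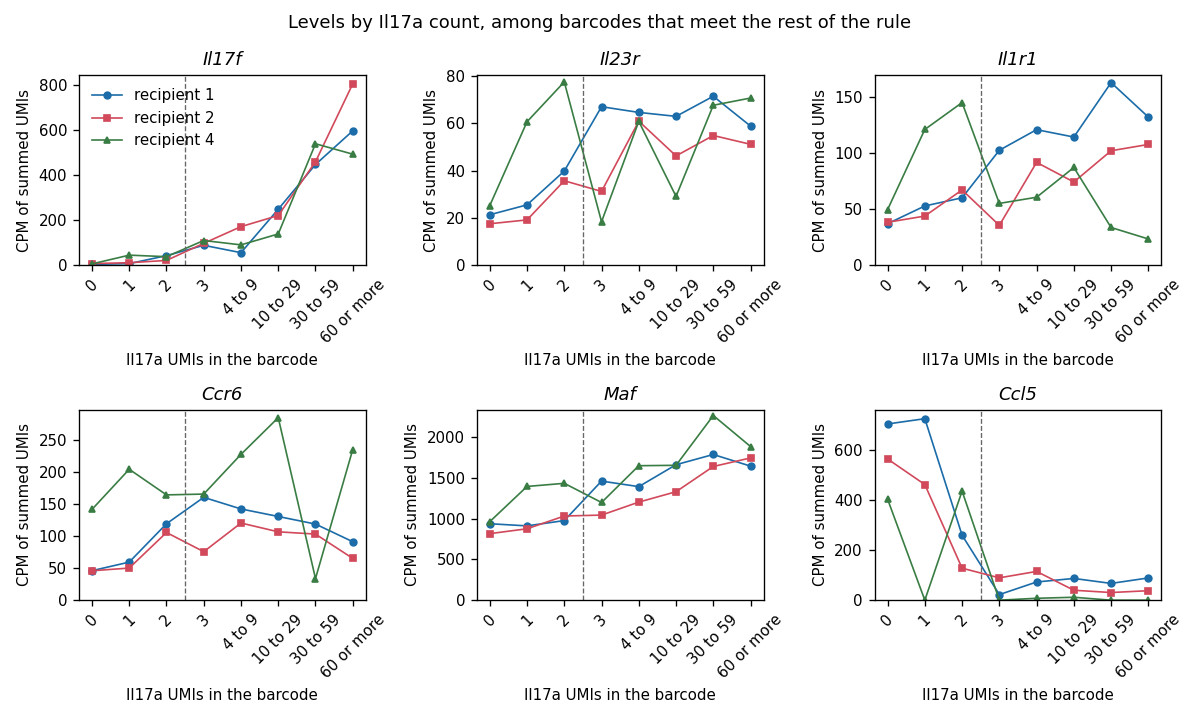
Level of 6 genes (CPM of summed UMIs, linear axes from 0) by the number of Il17a UMIs in the barcode, among kept barcodes that meet the rest of the rule; each line is 1 recipient and the dashed line is the gate at 3 UMIs. Il17f climbs to between 495 and 807 CPM at the highest Il17a counts, while Il23r and Ccr6 show no such climb and Ccl5 is low inside the gate.

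Members were then compared with the 18304 other kept barcodes over the sums of each recipient, using edgeR's quasi-likelihood test blocked on recipient, with p-values adjusted over all genes by Benjamini-Hochberg. A gene counts as called, and as higher or lower, at an adjusted p under 0.05, and each change is a log2 fold difference with its standard error (SE). The 5 genes of the rule were left out of the tests. Members were higher for 571 and lower for 707 of 11054 genes (11.6% called, 5.17% higher and 6.4% lower). These calls describe what accompanies the rule's genes in the same barcodes. Since the gate removed Ifng and Foxp3, it also shaped genes that go with them, and the calls give no independent sign that members are a separate type. Without the block on recipient 80 genes were called. The count was 421 without recipient 1 and 606 without recipient 2. Of 63 genes checked in this comparison, 41 calls were lost without the block, those of Il17f, Il1r1, Ccr6 and Irf4 among them. With DESeq2 in place of edgeR 5 calls were lost, among them those of Bhlhe40, Gzmb, Gzma and Il12rb2.

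Transcription factors of Th17 differentiation were mostly higher: 10 of 14 higher, 1 lower, with a median difference of 0.40 against -0.00498 over all genes. Irf4, which works with BATF at Th17 genes, stood at 131, 167 and 86.1 CPM against 73.5, 73.8 and 35.1 CPM (1.01, SE 0.08, adjusted p 2.0e-11), with recipient 4 low in both. Ikzf3, which encodes Aiolos, differed by 0.71 (SE 0.06), Bhlhe40 by 0.54, Runx1 by 0.43, Maf by 0.41, Rora, a nuclear receptor, by 0.39, and Ahr, the aryl hydrocarbon receptor, by 0.36. The 1 lower gene was Nfkbiz, another atypical IkB protein needed for Th17 development, at 197, 219.8 and 69.8 against 233, 267 and 90.4 CPM (-0.29, SE 0.07, adjusted p 0.0028). That call was lost without recipient 1 and without recipient 2. Batf and Stat3, 2 of the 3 factors that did not pass, differed by -0.03 (SE 0.08) and -0.17 (SE 0.07).

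Cytokine receptors of the Th17 pathway split, with 6 of 15 higher and 5 lower (median 0.14). The higher ones were Il23r (0.77, SE 0.08), Il1r1 (0.80, SE 0.09), the IL-1 decoy receptor Il1r2 (0.93, SE 0.08), the IL-17C receptor Il17re (0.88, SE 0.08), Il2rb and Il18r1. The lower ones included both parts of the IL-6 receptor. Il6st, which encodes its signalling chain gp130, was at 13.5, 12.5 and 9.31 CPM in members and 42.6, 33.4 and 46.9 CPM in the others (-1.60, SE 0.12, adjusted p 1.2e-11). Il6ra, the IL-6 binding chain, differed by -1.21 (SE 0.17) and Il7r, the IL-7 receptor, by -0.53 (SE 0.09). The 2 populations did not overlap for Il6st. Ccr6, the receptor of CCL20, differed by 0.97 (SE 0.07) with an adjusted p of 7.9e-12.

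Of 13 tested genes for secreted products, 6 were higher and 1 lower. Ccl20, the ligand of CCR6, was at 264, 461 and 291 CPM against 109.7, 197 and 95.7 CPM (1.29, SE 0.07, adjusted p 1.7e-15), with every member sum above every other sum. Il17f differed by 1.25 (SE 0.08) with an adjusted p of 8.3e-14. Il21, a cytokine that acts back on Th17 cells, was at 48.3, 28 and 83.8 CPM against 25.7, 13.5 and 15.6 CPM (1.09, SE 0.13), the widest gap being in recipient 4. Furin, a protease that activates TGF-β and other precursors, was at 1497, 1288 and 726 CPM against 737, 729 and 294 CPM (1.0, SE 0.07). Il10, an anti-inflammatory cytokine, was at 252, 255 and 60.5 CPM against 298, 300.0 and 42.8 CPM and did not pass (-0.22, SE 0.07, adjusted p 0.057). Csf2, the gene of GM-CSF, was at 3.42, 13.2 and 0 CPM in members and 4.23, 11.1 and 10.4 CPM in the others, and did not pass (-0.06, SE 0.24).

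Several leading higher genes have no assigned place in the Th17 pathway. Cpe, which encodes a carboxypeptidase that processes peptide hormones, was at 278, 184 and 123 CPM in members and 101, 64.7 and 45.6 CPM in the others, without overlap (1.46, SE 0.07, adjusted p 6.6e-17). Nrgn, a calmodulin-binding protein best known from neurons, was at 106, 70.9 and 251 CPM against 33.8, 42 and 52.6 CPM (1.38, SE 0.13), with recipient 4 far above the rest. Kit, the stem cell factor receptor, was at 107, 42.3 and 81.5 CPM against 35.7, 27.8 and 36.2 CPM (1.16, SE 0.11). Prr5l, an mTORC2-associated protein, Ablim3, an actin-binding protein, and Rnf144a, an E3 ubiquitin ligase, were also among the 14 leading genes, with differences of 1.07, 1.0 and 0.99. All 14 kept their direction in each recipient, which the rule for naming them asked for.

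Of the 12 leading lower genes, Ccl5, a chemokine, was at 78.4, 56.1 and 6.98 CPM in members and 624, 524 and 409.7 CPM in the others (-3.22, SE 0.11, adjusted p 3.1e-20). Ccl4, another chemokine, was at 4.0, 1.91 and 9.31 CPM against 46.2, 42.1 and 14.7 CPM (-3.73, SE 0.20), and Xcl1, which draws dendritic cells, at 6.66, 2.55 and 4.66 CPM against 61.9, 42.9 and 14.4 CPM (-3.47, SE 0.16). In all 3 recipients the member sums were lower. Itga1 and Itgae, integrins of resident lymphocytes at the epithelium, differed by -2.85 (SE 0.14) and -2.55 (SE 0.12). Of the Th1 list, 8 of 13 were lower and 1, Il18r1, higher (median -1.58). Tbx21, which encodes T-bet, was at 4.38, 4.67 and 2.33 CPM against 14.7, 12.9 and 8.62 CPM (-1.64, SE 0.21). Of the granule genes, 8 of 11 were lower and 2 higher (median -0.85). Gzmb, granzyme B, was at 391, 283 and 32.6 CPM against 669, 611 and 252 CPM (-1.10, SE 0.11), and Gzma at 269, 244 and 463 CPM against 435, 633 and 512 CPM (-0.85, SE 0.11). Gzma turned to 0.38 higher when the others were limited to barcodes with a CD3 UMI and no Il17a or Foxp3 UMI. Slamf7, Ctsw, Cd7, Dapk2 and Gpr18, with differences between -2.55 and -2.15, and Apoe (-3.57) and Cd74 (-2.21), genes of myeloid and antigen-presenting cells, complete the 12.

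**Figure D2:**
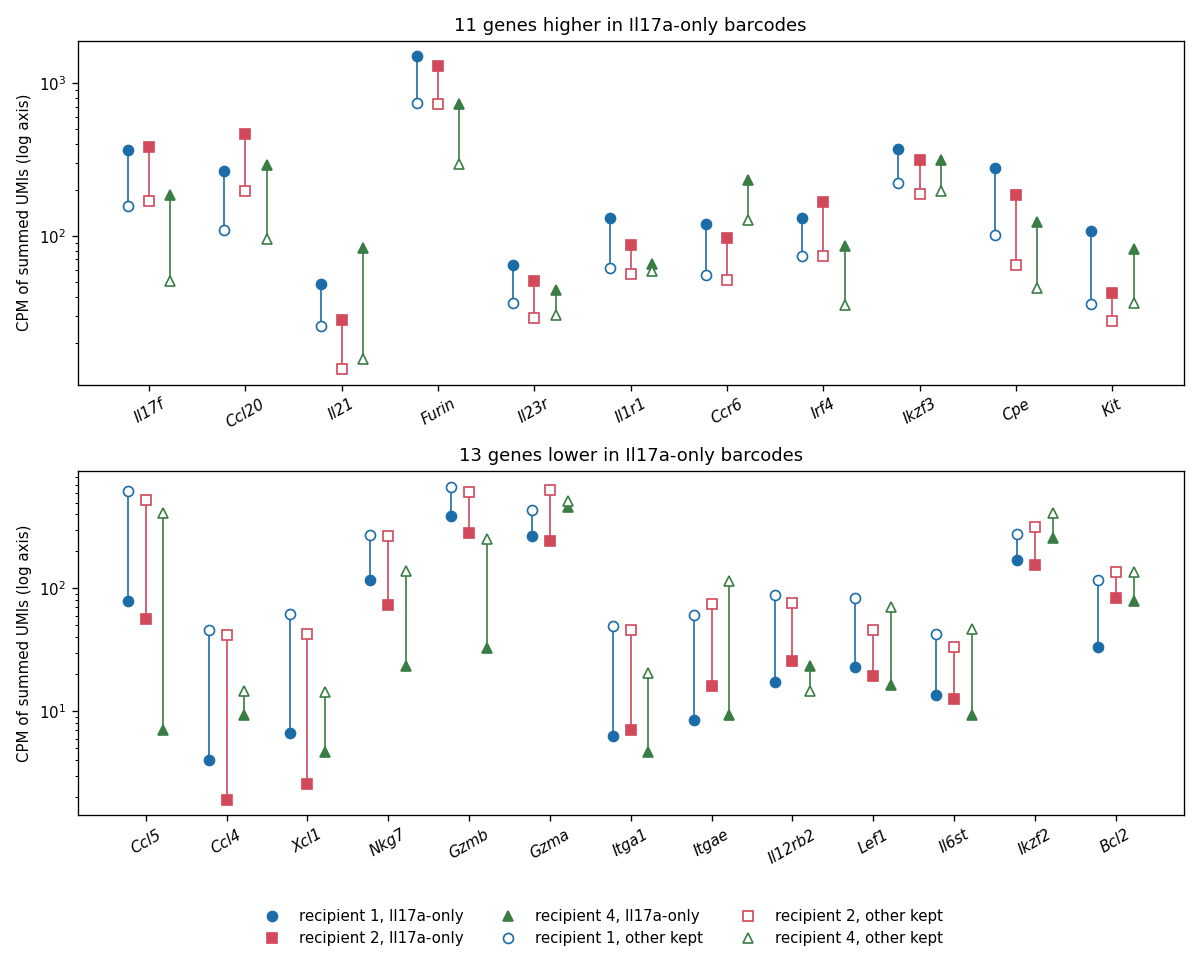
Levels (CPM of summed UMIs, log axes) of 24 genes in Il17a-only barcodes (filled) and the other kept barcodes (open) of recipients 1, 2 and 4, joined within a recipient. The upper genes are higher in members in each recipient; the lower genes are lower in each, except Il12rb2 in recipient 4, where members stand at 23.3 CPM and the others at 14.6 CPM.

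Lists of regulatory, naive and follicular helper cells had more lower than higher genes. Of 16 genes of regulatory T cells, 11 were lower and 3 higher (median -0.64). Ikzf2, which encodes Helios, was at 171, 156 and 256 CPM against 276, 319 and 414 CPM (-0.85, SE 0.07), while Ctla4, a checkpoint receptor, was higher at 2042, 2177 and 1080.0 against 1449, 1515 and 529 CPM (0.63, SE 0.07). Of 11 genes of naive and central memory cells 9 were lower (median -0.75), among them Lef1 (-1.64, SE 0.11), S1pr1, the receptor for tissue exit (-0.82, SE 0.10), and Tcf7 (-0.75, SE 0.10). Of 11 follicular helper genes 5 were lower and 2 higher (median -0.36). None of 8 tested Th2 genes was called. Of 16 genes of residence and gut homing 7 were higher and 3 lower. Cxcr6, at 495, 396 and 563 CPM against 306, 283 and 284 CPM, differed by 0.66 (SE 0.07), Ccr9, the gut-homing receptor, by 0.62 (SE 0.06), and Rgs1 by 0.64 (SE 0.06). Bcl2, a survival gene, was lower at 33.3, 83.9 and 79.1 against 117, 136 and 135 CPM (-1.15, SE 0.12). Socs3, a brake on STAT3 signalling, was lower at 43, 64.1 and 27.9 against 104, 106 and 89.2 CPM (-1.04, SE 0.10).

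A list of genes linked to pathogenic Th17 cells, with 14 of 16 tested, had 2 higher and 7 lower members (median -0.31). The lower ones were Ccl5, Ccl4, Ccl3, Gzmb, Tbx21, Il7r and Lgals3, of which the first 5 are also genes of Th1 or cytotoxic cells. The higher ones were the inhibitory receptor Lag3 (0.76, SE 0.08) and the chemokine Cxcl3. The list linked to non-pathogenic Th17 cells had 3 of 5 tested genes higher (Ikzf3, Maf and Ahr) and Il6st lower. Of 17 genes of the NF-kB family 4 were higher and 2 lower, with Nfkbia, the classical IkB protein, at 0.27 (SE 0.06), a call lost without recipient 1. Bcl3 was at 75, 63.1 and 55.9 CPM in members and 71.5, 71.1 and 71.9 CPM in the others and did not pass (-0.09, SE 0.08, adjusted p 0.61). Of 14 proliferation genes 1, Mcm3, was higher, and Mki67 differed by 0.06 (SE 0.10). Glycolysis genes had 1 higher and 1 lower of 15.

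The sorted population should be CD4 T cells, and members carried Cd3e at 927, 834 and 1131 CPM and Cd4 at 486, 444 and 459 CPM. Summed B cell markers reached 5.33, 11 and 16.3 CPM in members and 19.6, 24.1 and 12 CPM in the others, with 2 of 3 tested called, both lower, and Cd79a and Ms4a1 at 0 in members of recipients 2 and 4. Myeloid markers reached 2.66, 2.97 and 0 CPM against 14.6, 13 and 11.4 CPM, 3 of 4 tested being lower and all 6 markers at 0 in members of recipient 4. Plasma cell genes reached 302, 202 and 105 CPM against 264, 1635 and 139 CPM, 3 of 4 tested being lower, and 1 barcode held 962 of the 1589 UMIs in members of recipient 1. Of 6 γδ T cell markers 4 were tested, with Tcrg-C1 (0.96, SE 0.07) and Blk higher and Tcrg-C2 lower, their sum being 224, 272 and 431 CPM against 173, 189 and 241 CPM. Trdc, the constant segment of the δ chain, was at 0.190, 10.6 and 0 CPM in members, and Trdv4 at 0 in all 3 recipients, while Tcrg-C1 had a UMI in 38.4, 50.6 and 69.1% of members. A list of 5 genes of innate lymphoid cells held Kit, Il1rl1, Ncr1, Il18rap and Tyrobp, some of them also found in T cells. Kit was higher, Tyrobp lower and Ncr1 at 0 in members of all 3 recipients. The 5 summed to 152, 85.4 and 126 CPM against 83.8, 73.9 and 75.5 CPM. The part of such other cells in the calls was not tested.

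Barcodes that failed the gate on 1 gene only were compared next. The first such population had at least 1 Ifng UMI and otherwise met the rule, 1846 barcodes in all (1007, 790 and 49). Members were higher for 266 and lower for 263 of 10696 genes (4.95% called, 2.49% higher and 2.46% lower; 3 without the block). The count was 94 without recipient 1 and 87 without recipient 2. Il23r and Il1r1 did not pass, at 0.21 (SE 0.09) and 0.11 (SE 0.08). Ccr6 was higher in members, at 119, 96.4 and 230.4 CPM against 58.3, 47.2 and 38.8 CPM (1.14, SE 0.11, adjusted p 6.0e-07), with no overlap, and Il17f was lower, at 362, 380.3 and 184 against 499.8, 519.5 and 413 CPM (-0.48, SE 0.07). Il17a, not tested because the rule reads it, was at 8058, 6277 and 3738 CPM in the Ifng+ barcodes.

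Genes of Th1 and cytotoxic cells were lower in members than in the Ifng+ barcodes: 6 of 11 tested Th1 genes and 5 of 9 granule genes, with none higher in either list (medians -0.45 and -0.58 against -5.21e-05 over all genes). Gzma was at 269, 244 and 463 CPM in members and 1042, 1455 and 3618 CPM in the Ifng+ barcodes (-2.37, SE 0.11, adjusted p 3.0e-11), with no overlap. Nkg7, a granule protein of cytotoxic cells, was at 117, 73.5 and 23.3 against 383, 390.1 and 592 CPM (-2.10, SE 0.13). Il12rb2, the inducible IL-12 receptor chain of Th1 cells, was at 17.3, 25.7 and 23.3 against 63.7, 94.9 and 38.8 CPM (-1.81, SE 0.12), and Gzmb at 391, 283 and 32.6 against 1050.1, 775 and 811 CPM (-1.58, SE 0.15). The other leading lower genes were Serpine2, a protease inhibitor (-2.38), Cdk14 (-1.96), Ccl5 (-1.79), Ociad2 (-1.69) and Jaml, an adhesion molecule (-1.64). Havcr2, the checkpoint receptor TIM-3, differed by -1.0 (SE 0.09).

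Genes of naive, follicular helper and regulatory cells moved the other way against the Ifng+ barcodes. Of 10 naive and central memory genes 8 were higher in members, of 11 follicular helper genes 6, and of 14 regulatory genes 7, with none lower (medians 0.66, 0.65 and 0.36). Slamf6, a receptor of less differentiated T cells, led at 59.2, 63.3 and 102 CPM in members against 22.3, 16.8 and 7.05 CPM (1.72, SE 0.14, adjusted p 1.1e-07), without overlap. The chemokine receptors Cxcr4 and Ccr4 differed by 1.39 (SE 0.11) and 1.35 (SE 0.12). Tcf7 was at 119, 172 and 168 against 83.3, 109 and 81.1 CPM (0.64, SE 0.07), and Il7r differed by 0.57 (SE 0.06), a call lost without recipient 2. Tnfrsf4, which encodes OX40, differed by 1.12 (SE 0.11) and Nt5e, the ectoenzyme CD73, by 0.55 (SE 0.07). Il10 was at 252, 255 and 60.5 CPM in members and 155, 156 and 0 CPM in the Ifng+ barcodes (0.74, SE 0.08, adjusted p 4.8e-06), and Il21 differed by 0.77 (SE 0.16), a call lost without recipient 1. Ifngr2, a chain of the IFN-γ receptor, was higher by 1.46 (SE 0.20), a call lost without recipient 2. Il10, Il21, Tnfrsf4, Gzmb and Ccl5 were called neither with DESeq2, which called 88 genes here, nor without the block. Of 28 called genes checked in this comparison, DESeq2 still called 15 and lost 6. The rest had no adjusted p with DESeq2 and so were not called. Without the block 25 of the 28 were lost. Adk, Krt83 and Pard6g, at 1.41, 1.40 and 1.28, complete the 8 leading higher genes, with Pard6g lost without recipient 1.

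The second population had at least 3 Il22 UMIs, no Ifng UMI and otherwise met the rule, and held 390 barcodes (218, 165 and 7). Members were higher for 24 and lower for 80 of 8636 genes (1.2% called, 0.278% higher and 0.926% lower; 3 without the block and 4 with DESeq2). Without recipient 1 the count was 8 and without recipient 2 it was 14. The Il22-high barcodes were deeper, with a median of 6392, 6148 and 7705 UMIs against 5833, 5834 and 5837 in members. With barcodes of 3000 to 12000 UMIs only, 117 genes were called, and Fabp5, named below, reversed. Members held less of several Th17 genes. Il17f was at 362, 380.3 and 184 CPM in members and 509, 547 and 885 CPM in the Il22-high barcodes (-0.69, SE 0.09, adjusted p 6.7e-10). Il1r1 differed by -0.66 (SE 0.12), Il23r by -0.61 (SE 0.15), Furin by -0.67 (SE 0.08) and Irf4 by -0.69 (SE 0.10). Ccr6 did not pass, at -0.14 (SE 0.12).

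Of 17 NF-kB family genes tested 4 were lower in members than in Il22-high barcodes and 13 were not called. Nfkbia was at 1459, 1609 and 463 against 2134, 2475 and 1369.9 CPM (-0.73, SE 0.09), the others being Tnfaip3, Rel and Traf1. Cxcl3, a neutrophil chemokine, was at 35.4, 16.6 and 11.6 against 102, 228 and 0 CPM (-2.58, SE 0.16), although the 7 Il22-high barcodes of recipient 4 held none. Areg, an epithelial growth factor, was at 158, 126 and 65.2 against 219, 225 and 184 CPM (-0.70, SE 0.11). Of 12 proliferation genes 4 were lower and 8 not called. Mki67 was among the 4, at 59.7, 55.6 and 44.2 against 75, 124 and 16.7 CPM (-0.74, SE 0.15), where recipient 4 went the other way. Fes, a tyrosine kinase, Prr7, Srgap3, Fabp5, a fatty acid binding protein, and Pde5a, the cyclic GMP phosphodiesterase, differed by between -1.0 and -0.76. Iltifb, the near-identical copy of Il22, differed by -2.07, and reads of these 2 genes may be shared, so its value is uncertain. On the higher side, Ramp1, a co-receptor of the neuropeptide CGRP, was at 23.8, 67.7 and 46.6 against 3.69, 29.1 and 33.4 CPM (1.49, SE 0.24). Il7r and Nt5e were higher by 0.38 (SE 0.09) and 0.47 (SE 0.11). Olfr1369-ps1, Igfbp7, AI467606, Tgtp2, Tspan32 and Nrgn, between 0.55 and 2.21, were the other leading higher genes. So was Jchain, at 23.8, 13.2 and 2.33 against 3.69, 9.70 and 0 CPM, a plasma cell gene whose members' UMIs in recipient 1 include the plasma cell barcode above. Tnfaip3, Rel and Traf1 were not checked with a recipient left out. Of the other genes called and named here, Il17f, Furin, Nfkbia, Cxcl3 and Iltifb were still called with recipient 1, 2 or 4 left out. DESeq2 did not call Il17f, Furin, Nfkbia or Cxcl3, and of these only Cxcl3 was called without the block. Jchain was called without recipient 4 and had too few UMIs for a test without recipient 1 or 2. Olfr1369-ps1 was lost without recipient 1, and all others checked without recipient 1 and without recipient 2. Nrgn was also lost without recipient 4.

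**Figure D3:**
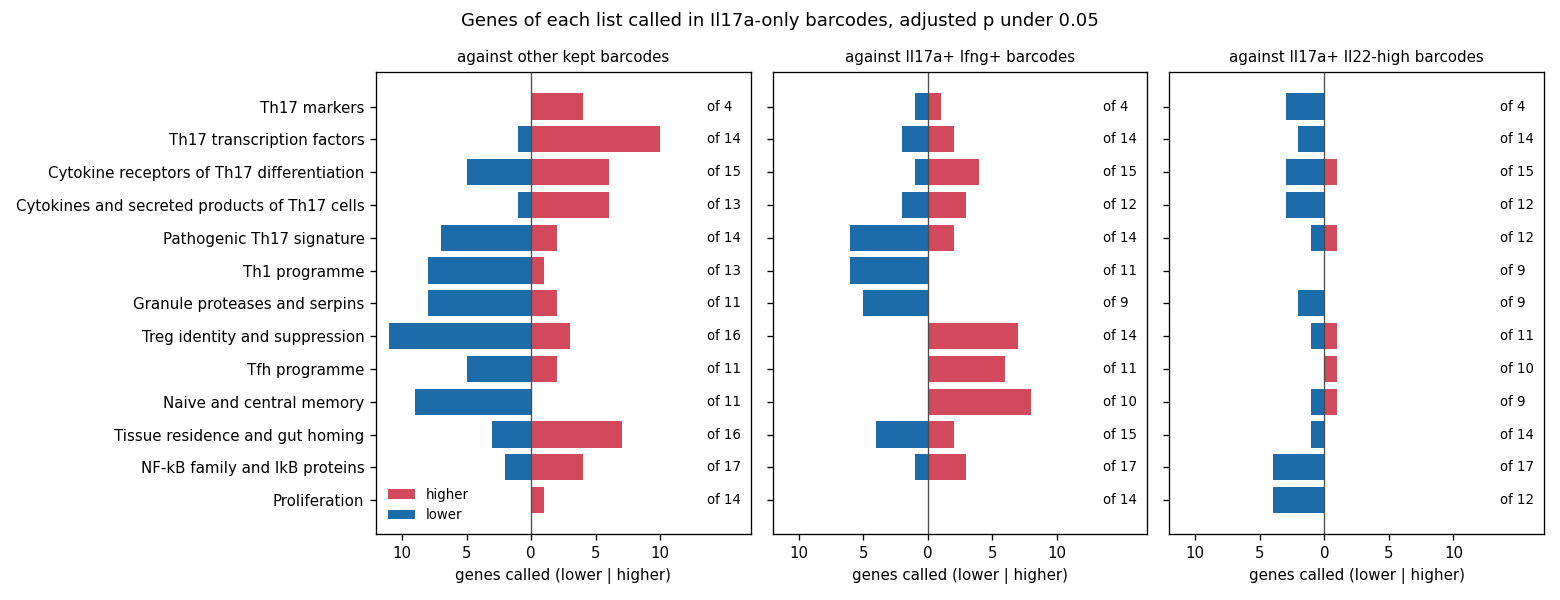
Number of called genes per list (adjusted p under 0.05, bars to the right higher and to the left lower in Il17a-only barcodes) in 3 comparisons, with the number tested at the right. Th1 and granule lists are lower in the first 2 comparisons, and the naive list goes from 9 lower of 11 against all others to 8 higher of 10 against Ifng+ barcodes.

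The study mixed wild type and Bcl3-/- marrow to compare both donors' cells within an animal. The targeted gene was checked first. In members, Bcl3 was at 37 and 33.6 CPM in the cells labelled wild type (CD45.1) of recipients 1 and 2 and 76.7 and 64.7 CPM in those labelled Bcl3-/- (CD45.2), 16 and 654 UMIs (0.94, SE 0.35, adjusted p 0.57). The level is thus not lower in the cells labelled Bcl3-/-. Tags of the 3′ end outside a deleted part check nothing, and the directions between donors below rest on the labels alone. The other kept barcodes showed the same order, 31.2 and 21 CPM in CD45.1 and 76.1 and 77.5 CPM in CD45.2.

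A larger share of the CD45.2 barcodes than of the CD45.1 barcodes was Il17a-only. In recipient 1, 33 of 736 CD45.1 barcodes were members (4.48%, exact 95% interval 3.11% to 6.24%) and 795 of 8398 CD45.2 barcodes (9.47%, 8.85% to 10.1%). In recipient 2 they were 39 of 851 (4.58%, 3.28% to 6.21%) and 690 of 8198 (8.42%, 7.82% to 9.04%). In recipient 4 they were 0 of 102 (exact 95% interval 0% to 3.55%; a floor of 3 counts is 2.94%) and 67 of 1289 (5.2%, 4.05% to 6.55%). The intervals cover counting error only. The mean log2 odds ratio, with 0.5 added to each count, was 1.85 ± 1.43 (SD, n = 3), and 3 of 3 recipients had the larger share in CD45.2. An exact permutation test by sign flips (two-sided) gave p = 0.25, the smallest that 3 recipients allow. The value of 3.50 in recipient 4 rests on its count of 0, and without that recipient the mean was 1.03. Thinned to 3000 UMIs per barcode the mean was 1.5. With recipient 3 added, where 2 of 30 CD45.1 and 159 of 3555 CD45.2 barcodes met the rule (6.67% against 4.47%, log2 odds ratio -0.90), it was 1.16 and higher in CD45.2 in 3 of 4 recipients. A gate of 2 Il17a UMIs gave 1.19. With a gate of 1 Il17a UMI, which many Foxp3+ barcodes of recipients 1 and 2 also passed, it was 0.58 and higher in CD45.2 in 2 of 3 recipients (exact p = 0.75).

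All barcodes with at least 3 Il17a UMIs made up 9.65% of CD45.1 and 32.4% of CD45.2 barcodes in recipient 1, 13.3% and 29.2% in recipient 2, and 1.96% and 11.3% in recipient 4. Members were 33 of 71 such CD45.1 barcodes in recipient 1 (46.5%, 34.5% to 58.7%) and 795 of 2720 CD45.2 barcodes (29.2%, 27.5% to 31.0%). In recipient 2 they were 39 of 113 (34.5%, 25.8% to 44%) and 690 of 2391 (28.9%, 27.0% to 30.7%), with overlapping intervals. Recipient 4 had only 2 such CD45.1 barcodes. Il22-high barcodes numbered 2, 1 and 0 from CD45.1 and 214, 160 and 7 from CD45.2. Differences between these populations were not tested.

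**Figure D4:**
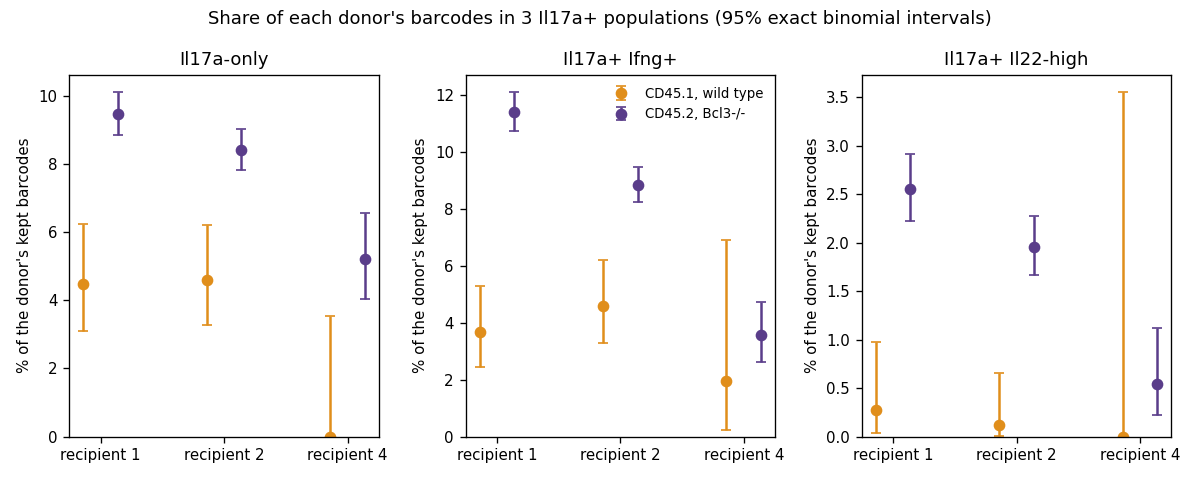
Share of each donor's kept barcodes (%, axes from 0) that are Il17a-only, Il17a+ Ifng+ or Il17a+ Il22-high in recipients 1, 2 and 4, with exact 95% binomial intervals for counting error. In each recipient the Il17a-only share is higher in CD45.2 than in CD45.1, 9.47% against 4.48% in recipient 1.

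Within members, donors could be compared in recipients 1 and 2 only, with 33 and 39 CD45.1 members (189048 and 267574 UMIs) and 795 and 690 CD45.2 members. Recipient 4 had no CD45.1 member and is not in this fit, which leaves 1 residual degree of freedom, so that the spread is taken largely from other genes. CD45.2 members were higher for 7 and lower for 18 of 9257 genes (0.27% called, 0.0756% higher and 0.194% lower; 4 without the block and 3 with DESeq2). None of the 4 tested Th17 markers, 14 transcription factors or 15 receptors was called, and at an unadjusted p under 0.05 there were 529 genes in all. Il17f was at 407 and 497 CPM in CD45.1 and 365 and 380.2 CPM in CD45.2 members of recipients 1 and 2 (-0.33, SE 0.20). Il23r, Il1r1 and Ccr6 differed by 0.05 (SE 0.33), 0.03 (SE 0.25) and 0.25 (SE 0.26). These values do not show that members of both donors hold equal levels.

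The genes higher in CD45.2 members were led by Cd83, an activation marker at chr13:43784775-43803132. It was at 5.29 and 14.9 CPM in CD45.1 and 155 and 157 CPM in CD45.2 members, 5 against 1431 UMIs (3.78, SE 0.42, adjusted p 4.0e-15). Both recipients showed it, 4 of 72 CD45.1 members held a UMI, and the other kept barcodes had 52.8 and 29.2 CPM in CD45.1 against 167 and 207 CPM in CD45.2. Pim2, a survival kinase, had 0 UMIs in 72 CD45.1 members and 236 in 1485 CD45.2 members. Against a floor of 3 UMIs over the group this is at least 3.91-fold higher, with the UMIs of all cells pooled. Mgat5, a glycosyltransferase that branches N-glycans, was at 21.2 and 14.9 against 109 and 86.3 CPM (2.40, SE 0.41, adjusted p 4.5e-06). Cmc2, a mitochondrial assembly protein, was at 95.2 and 29.9 against 155 and 134 CPM (1.27, SE 0.29). Fam46a and Stmn1 rest on 5 and 7 UMIs in CD45.1 members (2.24, SE 0.52, and 1.88, SE 0.47), and Stmn1 turned to -0.33 with a gate of 2 Il17a UMIs. The remaining higher gene was the predicted gene Gm12840. The calls of Pim2, Cmc2 and Fam46a were lost without the block and with DESeq2. Gates of 2 and of 5 Il17a UMIs and a 16-fold tag ratio lost them too. That of Mgat5 was lost without the block, with DESeq2 and with tags scaled per library. Stmn1 was lost in the same settings as Mgat5, and also with a gate of 5 UMIs and with a 16-fold tag ratio. Leaving out barcodes above 3 times the median UMI count lost it too. For none of these higher genes was the donor difference in members called different from that in the other kept barcodes. The difference of differences was 1.73 (SE 0.91) for Cd83, 0.79 (SE 0.38) for Mgat5 and 0.54 (SE 0.37) for Cmc2. For Fam46a and Stmn1 it was 1.78 (SE 0.78) and 2.31 (SE 0.40). These higher values are thus not shown to be particular to members.

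Of the genes lower in CD45.2 members, Areg was at 508 and 250.4 CPM in CD45.1 and 146 and 121 CPM in CD45.2 members (-1.49, SE 0.19, adjusted p 1.2e-10), but only 20 CD45.1 members held it and 1 of them had 51 of the 163 UMIs. Nfkbid, another atypical IkB protein, was at 74.1 and 112 against 42.8 and 37.1 CPM (-1.31, SE 0.29, adjusted p 0.0037), the 1 called gene of 17 of the NF-kB family. The Nfkbid call was lost without the block, with DESeq2, with gates of 2 and of 5 Il17a UMIs and with a 16-fold tag ratio. The same held for Tagap. The calls of Emp1, Dusp4, H1f0, Bcl2 and Ramp1 were also lost without the block. A gate of 2 UMIs lost Emp1, Dusp4 and H1f0, a gate of 5 lost Emp1, Bcl2 and Ramp1, and tags scaled per library lost Emp1. Of the 25 genes called between donors, DESeq2 called Areg, Cd83 and Ctse. Bcl2 was at 42.3 and 209 against 31.5 and 72.5 CPM (-1.32, SE 0.26), with recipient 1 low in both donors. Dusp4, a MAP kinase phosphatase, was at 122 and 146 against 47.5 and 61.2 CPM (-1.35, SE 0.25). Ramp1 was at 52.9 and 176 against 19.7 and 61.9 CPM (-1.56, SE 0.28), and Oser1, an oxidative stress gene, at 164 and 108 against 46.5 and 46.7 CPM (-1.56, SE 0.26). Tagap, H1f0, a linker histone, and Emp1, a membrane protein, differed by -1.5, -1.34 and -1.16. In each of these genes both recipients showed the lower value in CD45.2. Only for Dusp4 and H1f0 among them was the donor difference in members called different from that in the other kept barcodes. The difference of differences was 0.27 (SE 0.47) for Bcl2, 0.21 (SE 0.69) for Ramp1, -0.45 (SE 0.45) for Nfkbid and -0.69 (SE 0.25) for Oser1. It was larger in size for Areg (-2.18, SE 0.40, adjusted p 0.084), Emp1 (-1.35, SE 0.44) and Tagap (-0.84, SE 0.33), but was not called. These lower values are thus not shown to be particular to members.

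The donors also differ at the genome around their alleles. Cxcr4 (chr1:128588199-128592293; 138 and 239 against 62.1 and 83.5 CPM, -1.43, SE 0.23) and Ctse (chr1:131638306-131675505; 52.9 and 56.1 against 2.84 and 1.88 CPM, -4.56, SE 0.62) lie within 10 Mb of Ptprc, which encodes CD45 and whose alleles mark the donors. They are 2 of 59 tested genes there, against 25 called of 9257 in all, while 0 of 141 tested genes within 10 Mb of Bcl3 were called. Strain sequence and deletion cannot be told apart at such genes. The call of Cxcr4 was lost without the block and with DESeq2. Ccr7, Gzma and Ccr1 were called although the 2 recipients went in opposite directions. For Ccr7 1 CD45.1 barcode held 30 of 61 UMIs, and for Gzma 1 held 102 of 249. Arl4c, Arid5a, Ipmk and Uimc1 complete the lower calls, at between -1.08 and -0.88.

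For 9 of 10759 genes (0.0837% called, 0.00929% higher and 0.0744% lower; 0 without the block, where 755 had an unadjusted p under 0.05) the donor difference in members differed from that in the other kept barcodes of recipients 1 and 2. In 8 of them it was more negative in members. Il17f was at 27.4 and 51.7 CPM in CD45.1 and 174 and 185 CPM in CD45.2 among the others, with every CD45.2 value higher. Among members it was at 407 and 497 CPM against 365 and 380.2 CPM, with the CD45.2 values lower (-2.37, SE 0.24 for the difference of differences, adjusted p 0.0025). Cpe was at 15.6 and 15.6 CPM in CD45.1 against 110.0 and 70.7 CPM in CD45.2 among the others, and 259 and 164 against 281 and 189 CPM among members (-2.22, SE 0.22, adjusted p 0.0025). In Ccl20, Tnfsf8, the gene of CD30 ligand, and Ikzf3 the others were also higher in CD45.2 and members were not, with -1.44, -1.45 and -1.05. Beside this, Il17a in the others stood at 549 and 508 CPM in CD45.1 and 2359 and 1770.0 CPM in CD45.2. The part of that imbalance in the 9 genes was not tested. Dusp4 and H1f0 were lower in CD45.2 members but not in the others (-1.81 and -1.83). Gnl3, a nucleolar protein, was at 21.2 and 26.2 CPM in CD45.1 against 74.7 and 57.9 CPM in CD45.2 members, and 103 and 82.9 against 73 and 63.5 CPM in the others (1.99), a call lost with DESeq2 size factors. The call of Clps rests on 1 CD45.1 barcode with 26 UMIs.

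**Figure D5:**
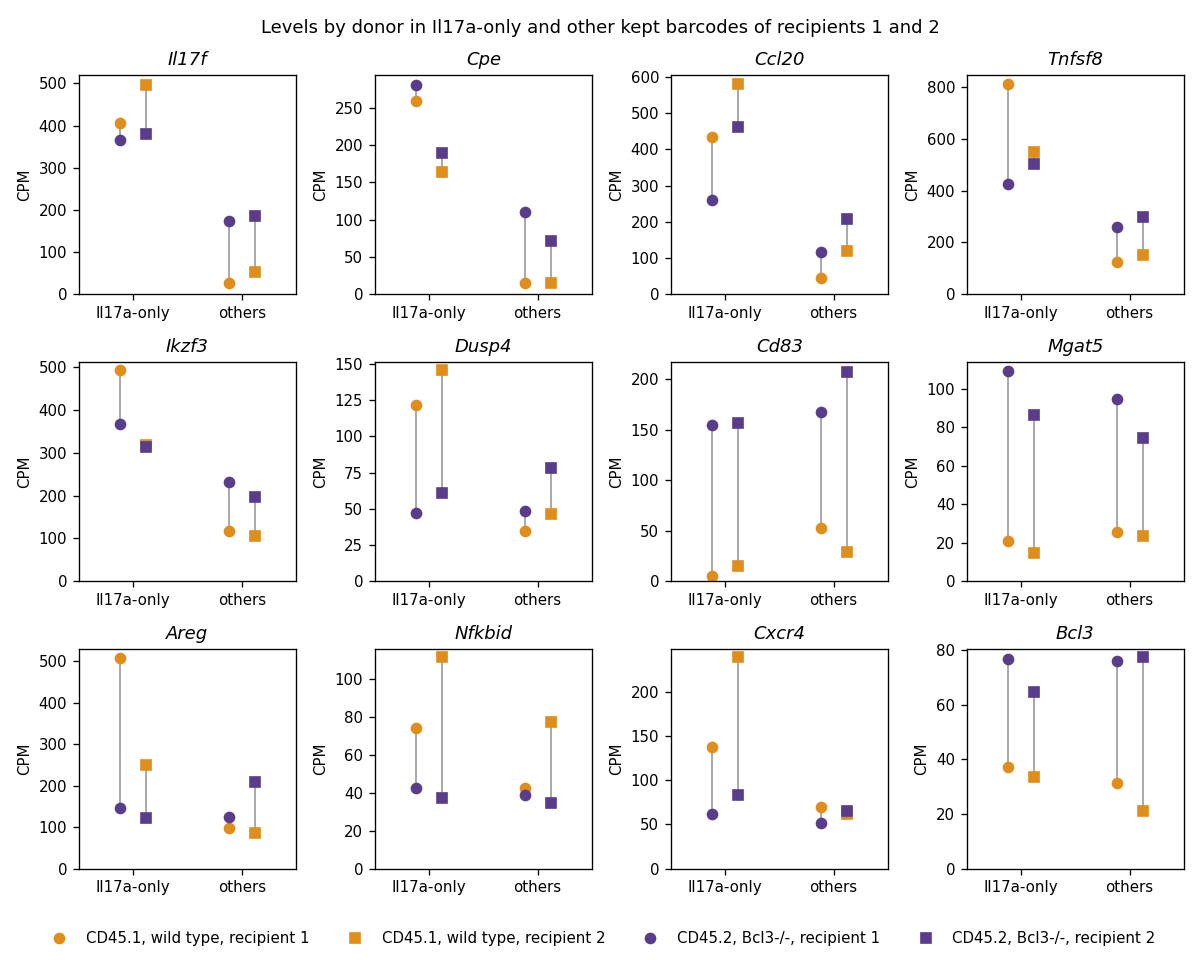
Levels (CPM, linear axes from 0) of 12 genes in CD45.1 and CD45.2 cells among Il17a-only and other kept barcodes of recipients 1 (circles) and 2 (squares), each pair joined. For Il17f, Cpe and Ccl20 the donors lie closer within Il17a-only barcodes on a fold scale than within the others; Cd83 and Mgat5 are higher in CD45.2 in both.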

How the data were processed

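The deposited matrices hold raw UMI counts per gene and barcode, which the authors made with Cell Ranger 6.1.1 and mm10 (per the submitters' processing notes). The sources used here do not give the gene annotation. Of 31053 genes, 30934 matched GENCODE M21 by identifier.

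Kept barcodes had at least 500 genes and at most 10% mitochondrial counts (19960 of 21766). Doublets were not called; barcodes above 3 times the median UMI count, 9 of them members, were left out as an alternative. Raw counts were summed per recipient and population, scaled by TMM, filtered with filterByExpr and tested with edgeR 4.0.16 (R 4.3.3). The SE is the size of the log2 difference divided by the root of its F statistic. DESeq2 1.42.0 was an alternative. The script was tested on simulated data. Recipients are separate animals, so sums of 1 recipient were paired: deviations of paired sums correlated at 0.589, 0.628 and 0.616 for members and others, and from 0.185 to 0.540 in the other comparisons. Intervals are Clopper-Pearson, at 95%.

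Named genes had an average log2 CPM of at least 4, 1 direction in all recipients and the largest differences (14 higher and 12 lower against others, 12 and 10 between donors, 8 and 8 against each neighbouring population), with receptor segments, mitochondrial, ribosomal and predicted genes passed over. Markers, Bcl3 and called genes of 33 lists were added. Other genes, such as list genes that missed the threshold, were named after their values were seen. Results of a few genes are not reported here. Members and lists were chosen with earlier results of these data known. The files pair 2 antibody tags with each barcode. No cell type annotation by the authors was used here.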

Additional observations from a re-analysis of the deposited data

Results flagged for a closer look

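For 9 genes the donor difference (log2, CD45.2 minus CD45.1) in Il17a-only barcodes differed from that in the other kept barcodes of recipients 1 and 2, by edgeR's test of the difference itself at an adjusted p under 0.05. The difference of differences was -2.37 for Il17f, -2.22 for Cpe, -1.83 for H1f0, -1.81 for Dusp4, -1.45 for Tnfsf8, -1.44 for Ccl20 and -1.05 for Ikzf3. It was 1.99 for Gnl3, which alone was more positive in members. For Clps it was -6.47, with 26 of the 27 UMIs of CD45.1 members in 1 barcode of recipient 2. None of the 9 passed without the recipient block, and Gnl3 was also lost with DESeq2 size factors. The gate asks for Il17a in members of both donors, while Il17a+ barcodes that failed it on another gene stay among the others. At least 3 Il17a UMIs were in 9.65% and 13.3% of all kept CD45.1 barcodes of recipients 1 and 2. In CD45.2 it was 32.4% and 29.2%. The part of this imbalance in the 9 calls was not tested.

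Recipient 3, which no comparison of the report uses, also held barcodes that meet the rule, 164 of its 3626. Il17a was at 3 or more UMIs in 91.6% of its kept barcodes.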

How the results depend on the processing

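Counts of called genes changed with the recipient block and the tool. In each setting named here edgeR's adjusted p under 0.05 is the threshold unless DESeq2 is named. Without the replicate block, which pairs the sums of 1 recipient, 80 genes in place of 1278 were called for members against others, 3 in place of 529 against Ifng+ barcodes, 3 in place of 104 against Il22-high barcodes, 4 in place of 25 between donors and 0 in place of 9 for the difference of donor differences. DESeq2 called 507, 88, 4 and 3 in the first 4. Leaving out 1 recipient in turn gave 421 to 1331, 87 to 698 and 8 to 174 genes in the first 3. Between donors this could not be run, since 1 recipient leaves no residual degrees of freedom. For members against others, a gate of 2 Il17a UMIs gave 719 genes, adding recipient 3 gave 303, and limiting the others to barcodes with a CD3 UMI and neither Foxp3 nor Il17a gave 2142. A gate of 5 UMIs gave 344 genes against Ifng+ barcodes and 8 between donors, where a gate of 2 gave 16. A gate of 10 UMIs, chosen after seeing the data, gave 1577 for members against others. With tags scaled per library 28 genes were called between donors, 18 of them among the 25. Of the named genes that were checked, 3 reversed. Gzma went to 0.38 against the limited others and Fabp5 to 0.020 against Il22-high barcodes of 3000 to 12000 UMIs. Stmn1 went to -0.33 between donors with a gate of 2 UMIs. The cause was not tested. The log2 odds ratio of the donor shares ran from 1.03 to 2.32 when 1 recipient was left out. Depth limits the donor comparison, with 72 CD45.1 members in recipients 1 and 2.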

Other observations

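Further lists of the comparison with the other kept barcodes were not described above. Of 18 immediate early and activation genes 8 were higher in members and 2 lower (median 0.16), the higher ones being Fosb, Jun, Junb, Egr1, Egr2, Nr4a1, Cd69 and Tnfsf8, the last of which differed by 0.80 (SE 0.06). Of 8 coinhibitory receptors 3 were higher, Ctla4, Lag3 and Havcr2, and Cd160 lower. Of 15 genes of the BCL2 family and death receptors Bcl2a1b and Bcl2a1d (near-identical copies, so their values are uncertain) were higher and Bcl2, Bid, Fas and Fasl lower. Of 12 genes of the type I interferon response 4 were lower, and of 10 genes of dissociation and stress 3, with none higher in either. Of 10 genes of CD4 T cell identity, Cd3e, Cd3g, Cd4 and Trac were higher and Cd2 lower.

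Use of T cell receptor β segments was counted over barcodes with a Trbv UMI, each taken by its most abundant segment. In recipient 1, Trbv1 was used by 50 of 364 such members (13.7%) and 289 of 3515 others (8.22%). In recipient 2 it was used by 30 of 318 members (9.43%) and 324 of 3476 others (9.32%), and in recipient 4 by 2 of 37 and 23 of 620. The excess in recipient 1 was thus not seen in recipient 2. These are values with no test.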
